A study of Mus musculus with 22 samples.

Results

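The Hox genes of the mouse lumbar spinal cord were examined as all rows of the expression table whose symbol starts with Hox. They numbered 35 of the 17306 genes in the table, namely 32 protein-coding genes of the HoxA, HoxB, HoxC and HoxD clusters and 3 noncoding transcripts (Hoxa11os, Hoxaas3 and Hoxd3os1). RNA sequencing had been made of the L4-L6 spinal cord of 22 wildtype C57BL6J mice aged 12 to 14 weeks at collection. All of them had received 1 mg of sodium monoiodoacetate in a knee, a model of persistent joint pain, and there was no group without it. SAFit2, an inhibitor of the stress regulator FKBP51, was given at 100 mg/kg in a slow-release vesicular phospholipid gel, and the Vehicle groups received the gel alone. The gel was given before and shortly after the knee injection (early; days -3 and 4, where the treatment label reads day 3 for the first) or once pain was established (late; days 20 and 27), and tissue was collected on day 30. The groups were Early SAFit2 (n = 5), Early Vehicle (n = 6), Late SAFit2 (n = 5) and Late Vehicle (n = 6). The labels give the early and the late mice as separate batches, so that timing and batch cannot be told apart. The titles of the Early SAFit2 samples name SAFit1 and their treatment labels SAFit2, and the latter were followed. The labels do not give the sex of the mice, and the study describes the mice given the early and late schedules for a gait test as male.

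Hox genes encode homeodomain transcription factors. They lie in 4 clusters, and genes at the same position of different clusters form a paralogue group, numbered from the end of the cluster that is active most rostrally. In the embryo this order along the chromosome matches the order of expression along the body axis: low-numbered groups begin in the hindbrain and neck, groups 8 and 9 mark the thoracic cord, and groups 10 and 11 mark the lumbar and lumbosacral cord, where they set the identity of hindlimb motor neurons. Much of this regional pattern persists in the adult cord, so the Hox genes record which segments a piece of tissue came from. In bulk tissue, fewer cells of a type and less RNA per cell cannot be told apart.

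Libraries held 11352989 to 24433349 reads on genes, and the correlation between any pair of libraries was between 0.925 and 0.987. Values are log2 CPM, the reads of a gene scaled to a fixed library size, with a floor of -3.154 at 0 reads. The slope of each library on the GC content of its genes differed between groups, from -0.46 to -0.05 log2 per 10 points of GC in Late SAFit2 mice and from -0.31 to 0.48 in Late Vehicle mice. All markers listed for neurons, astrocytes, oligodendrocytes, microglia and ependyma were in the table. Their summed levels differed somewhat between groups: microglia lay at 6.29 to 6.50 in Early SAFit2, 6.36 to 6.94 in Early Vehicle, 6.67 to 7.11 in Late SAFit2 and 6.50 to 6.95 in Late Vehicle mice. Between Late SAFit2 and Late Vehicle mice, ependyma was at 4.26 to 5.29 against 5.04 to 5.95 and neurons at 11.98 to 12.11 against 11.72 to 12.00. The part of these shifts in the Hox values was not tested. Of 6 markers of dorsal root ganglion only Avil was, at a highest level of 0.99, and of 4 genes of brain rostral to the cord only Neurod6, at 2.18 to 4.07. The 3 skeletal muscle markers in the table had a summed level of up to 2.39 outside the Late SAFit2 group and of 6.74 in 1 of its mice. The study describes the tissue as the dorsal horn quadrant of the injured side. The 6 motor neuron markers, genes of the ventral horn, had a summed level between 2.68 and 7.85 (log2 of summed CPM + 0.5), while the 8 dorsal horn markers lay between 6.22 and 7.37.

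Genes of paralogue groups 8 to 10 had the highest levels in this tissue. Hox genes made up between 0.0986% and 0.141% of the CPM of a mouse. Scaled to the length of the summed exons, Hoxb8 was the most abundant, with 108 ± 21.2 CPM per kilobase (mean ± SD over all 22 mice). Hoxb9 followed with 67.6 ± 10.3 and Hoxc10 with 52.7 ± 6.34 CPM per kilobase. Each of these 3 differed from the next by more than the SD over mice. After them came Hoxb6 (28.6 ± 8.69), Hoxb7 (27.5 ± 5.93), Hoxd10 (26.5 ± 4.66), Hoxc8 (22.7 ± 8.93), Hoxa10 (18.9 ± 2.55), Hoxa5 (18.3 ± 4.84) and Hoxd8 (17.3 ± 3.00), all in CPM per kilobase, and within this run no neighbours differed beyond their spread. Hoxb8 is known for a part in the formation of the dorsal horn, Hoxc8 and the group 9 genes for brachial and thoracic motor neuron identity, and the group 10 genes for that of the lumbar cord.

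By paralogue group, the length-scaled level rose from group 1 to group 8 and dropped between groups 10 and 11. Group 8 held 29.9% of the summed CPM per kilobase of all members, group 9 held 19.1% and group 10 held 19.9%, whereas group 11 held 1.24% and group 1 held 0.193%. The HoxB cluster alone, which contributed 8 members and none beyond group 9, held 53.6%, against 19.3% for HoxC, 13.6% for HoxA and 13.2% for HoxD. The plot of levels by cluster shows the step from Hoxc10 to Hoxc11 and from Hoxd10 to Hoxd11 in every group of mice. Hoxc10 stood at 52.7 and Hoxc11 at 1.21 ± 0.796 CPM per kilobase, and Hoxd10 at 26.5 and Hoxd11 at 1.43 ± 0.618. In the HoxA cluster the step was smaller, from 18.9 for Hoxa10 to 3.48 ± 0.920 for Hoxa11. Hoxc5 (1.12 ± 0.290), Hoxa6 (3.63 ± 1.77) and Hoxa9 (3.82 ± 0.620) were low for their position. The value of Hoxa9 depended on the length used. Per kilobase of the longest transcript it was 6.61, near Hoxc9 at 7.24. Other members shifted too, such as Hoxa3 from 0.667 to 1.55 and Hoxc8 from 22.7 to 28.9, while Hoxb8, Hoxb9 and Hoxc10 did not. No row of the expression table carried the symbol of Hoxb1 or of a gene beyond group 11.

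**Figure D1:**
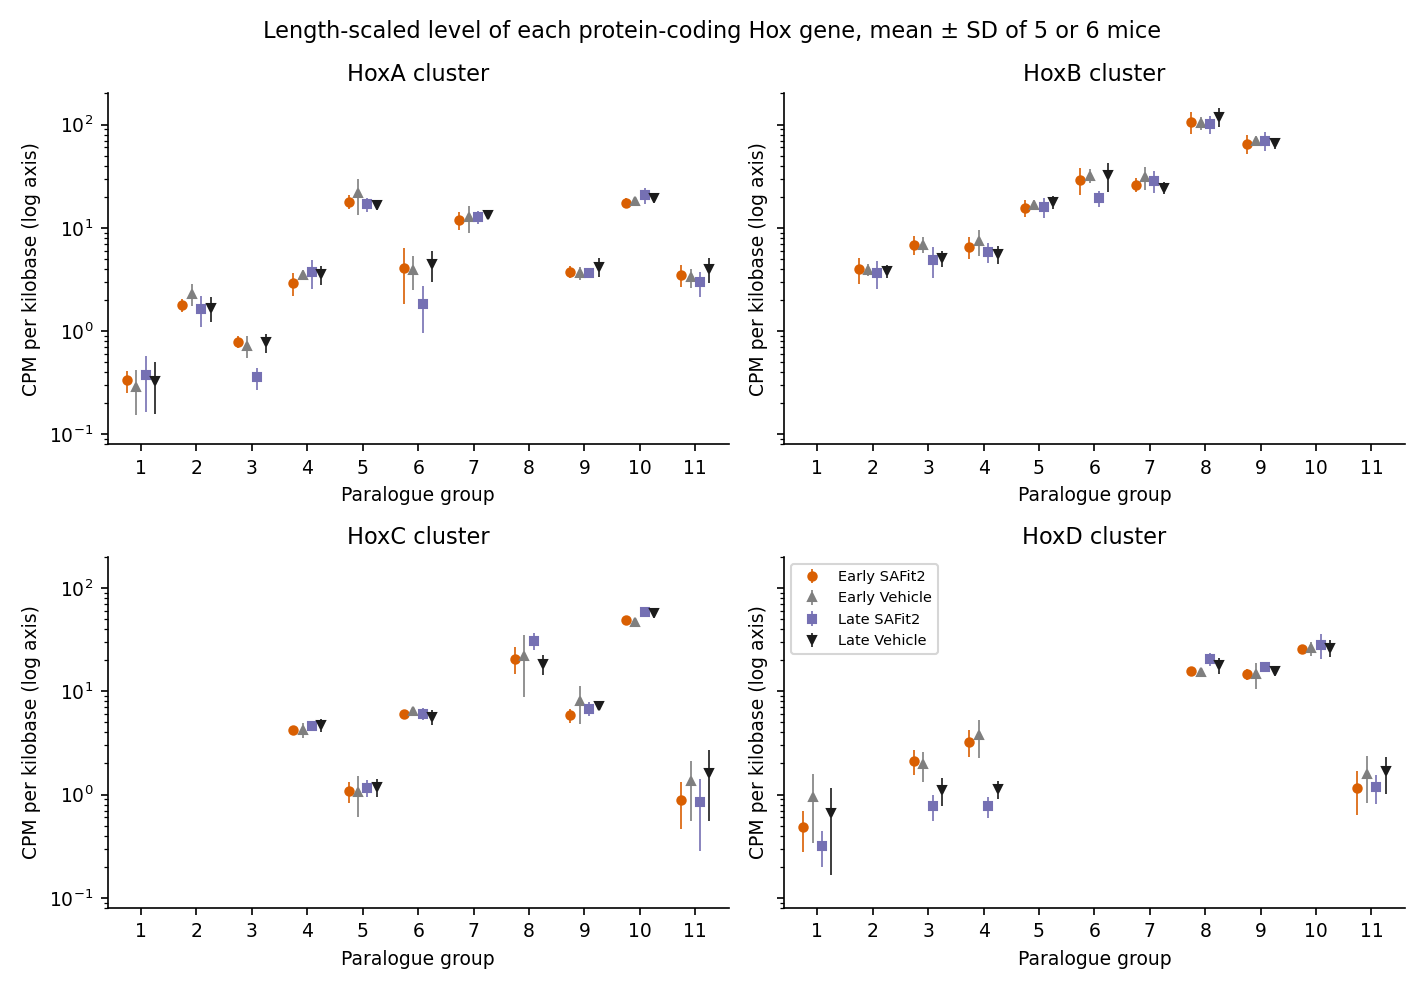
Mean CPM per kilobase of summed exons (log axis) of the 32 protein-coding Hox genes by paralogue group, one panel per cluster, with SD over the 5 or 6 mice of each of the 4 groups. Levels peak at Hoxb8 (108 CPM per kilobase over all mice) and drop between groups 10 and 11, from 52.7 to 1.21 in HoxC.

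The low members rested on few reads. Hoxc11 had 6 to 127 reads per library, Hoxd11 had 31 to 286 and Hoxa11 had 37 to 272. Of the noncoding members, Hoxa11os, which lies antisense to Hoxa11 and shares 26.0% of its exon bases with the opposite strand, had a mean log2 CPM of 1.51. Hoxaas3 had a mean of -0.57, with 0 to 37 reads. Hoxd3os1 had a mean of -2.11 and a median of 1 read, and was the only member that did not reach the minimum of -1 in 5 libraries. The tests below therefore cover 34 members.

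Paralogue group 10 varied little between mice, with a small rise of Hoxc10 in late mice. Hoxc10 lay between 6.35 and 6.68 in Early Vehicle mice with a median of 6.45, and its log2 CPM in the Early SAFit2 mice was 6.59, 6.59, 6.53, 6.50 and 6.62. In Late SAFit2 mice Hoxc10 was at 6.80, 6.75, 6.71, 6.73 and 6.98, and in Late Vehicle mice it ranged from 6.62 to 7.0 with a median of 6.73. Late mice of either treatment were thus slightly above most early mice. Hoxa10 ranged from 5.58 to 6.45 and Hoxd10 from 5.25 to 6.21 over all mice, with overlapping groups. The SD over all 22 mice was 0.17 for Hoxc10, 0.19 for Hoxa10 and 0.23 for Hoxd10, compared with 0.54 for Hoxc8 and 0.63 for Hoxd11.

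Paralogue group 11 varied widely between mice of the same group. Hoxc11 was at 0.65, -0.56, 1.12, 1.08 and 1.62 in the Early SAFit2 mice and at 1.04, -0.51, 1.18, -0.49 and 1.75 in the Late SAFit2 mice. In Early Vehicle mice Hoxc11 had a median of 1.38 (lowest -0.26, highest 2.28), and in Late Vehicle mice it was at 0.29, 2.09, 1.93, -0.20, 2.78 and 1.80. Every group held mice near 0 or below and mice well above 1. Hoxd11 had its lowest value in an Early SAFit2 mouse (1.11) and its highest in a Late Vehicle mouse (3.52). Hoxa11 ranged from 1.93, in a Late SAFit2 mouse, to 3.57, in a Late Vehicle mouse.

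Mice that were low for Hoxc11 were low for Hoxd11, although these genes lie on different chromosomes. Over 22 mice Hoxc11 and Hoxd11 correlated with Pearson's r = 0.81 (permutation p = 2e-05, adjusted 0.0001 over the 15 relations given a permutation test) and Spearman's rho = 0.91 (permutation p = 1e-05, the smallest that the permutations could give, adjusted 5e-05). The relation had r = 0.79 without the 2 mice farthest from the median of Hoxc11, and held within each batch (r = 0.78 in early and 0.90 in late mice, 11 mice each). Correlations of other pairs of members, described below without a test, are not among the 15. The adjusted p of correlations therefore do not allow for the choice of pairs. Hoxa11 correlated less closely with Hoxc11 (r = 0.58, permutation p = 0.0044, adjusted 0.0082; rho = 0.45, permutation p = 0.039, adjusted 0.058; r = 0.42 without the 2 farthest mice). Within batches this was r = 0.35 in early and 0.70 in late mice. Hoxa11 and Hoxd11 had r = 0.28 (permutation p = 0.20, adjusted 0.23) and rho = 0.31 (permutation p = 0.16, adjusted 0.20).

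Hoxc8 ran the other way. It correlated with Hoxd11 at r = -0.67 (permutation p = 0.00076, adjusted 0.0016) and rho = -0.70 (permutation p = 0.00049, adjusted 0.001), also without the 2 mice farthest from the median of Hoxd11 (r = -0.67) and within batches (r = -0.79 in early and -0.56 in late mice). The pair was picked after its values were seen, and its p do not allow for that. With the group means removed it had r = -0.70, the lowest of all 496 pairs of protein-coding members. Early Vehicle mouse 5 had the highest Hoxc8 of all (7.01) and the highest Hoxa5 (6.04) and low levels of Hoxc11 (-0.26) and Hoxd11 (1.78). Early Vehicle mice 2 and 3 stood at the opposite end, with Hoxd11 at 3.41 and 3.43 and Hoxc8 at 5.01 and 5.37. The plot of these genes by mouse shows all 4 groups spread along the same line for Hoxc11, but not for Hoxc8. There the Late SAFit2 mice, with Hoxc8 at 6.08 to 6.77, all lay above the Late Vehicle mice.

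**Figure D2:**
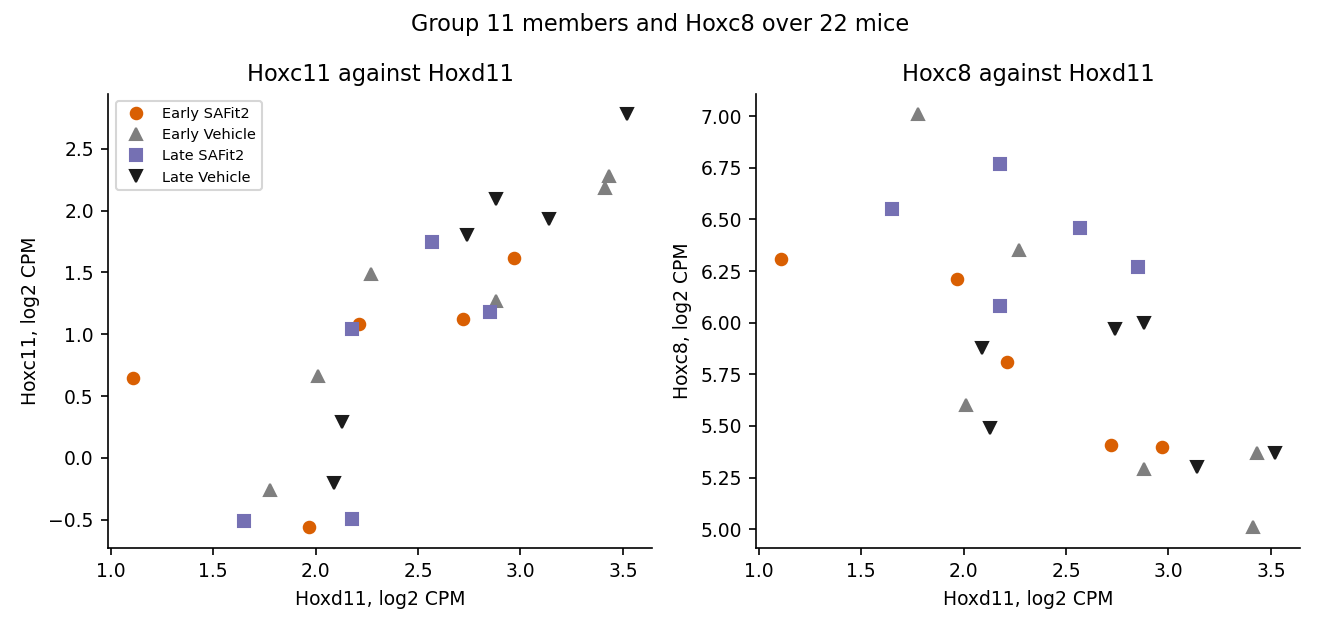
Log2 CPM of Hoxc11 (left) and Hoxc8 (right) against that of Hoxd11, one symbol per mouse, with symbols for the 4 groups. Hoxc11 rises with Hoxd11 (r = 0.81 over 22 mice) and Hoxc8 falls (r = -0.67), and mice of each group lie at low and high Hoxd11.

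These pairs belonged to a wider pattern. After removal of the group means, the correlation over 22 mice had a median of 0.250 over the 33 pairs of the same paralogue group, 0.107 over the 115 other pairs of the same cluster and 0.063 over the 348 remaining pairs of protein-coding members. For the 45 pairs of a group 11 gene with a gene of groups 5 to 9 the median was -0.230, and 9 of the 45 were above 0. The 15 pairs within groups 10 and 11 had a median of 0.293, with 14 above 0. Over all 496 pairs the median was 0.075, with 289 above 0. All pairs share the same 22 libraries and many share a gene, so these values are a description. With values corrected for the GC content and length of genes, the medians were 0.211, 0.112 and 0.031 for the first 3 classes, -0.195 for group 11 with groups 5 to 9, and 0.389 within groups 10 and 11.

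Each mouse was given a score. It was the mean log2 CPM of 6 members of groups 10 and 11 minus that of 15 members of groups 5 to 9. By the embryonic order a higher score is more caudal, but whether it followed the segment of this tissue was not tested. The mean of the group 11 genes had an SD of 0.595 over 22 mice and that of group 10 had 0.163. The score spanned -1.58 to -0.25. Its median was -0.92 in Early SAFit2 mice (range -1.48 to -0.63), -0.92 in Early Vehicle mice (-1.58 to -0.25), -1.01 in Late SAFit2 mice (-1.48 to -0.37) and -0.60 in Late Vehicle mice (-1.38 to -0.37). Every pair of groups overlapped over most of its range. Mice of a single group thus lay farther apart than any group medians did. The order of the group medians depended on the measure. By the log2 ratio of summed CPM, Late SAFit2 mice had the highest median and not the lowest.

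Motor neuron markers also differed between mice and moved with Hoxa11. Their summed level correlated with Hoxa11 at r = 0.56 (permutation p = 0.0074, adjusted 0.011) and rho = 0.59 (permutation p = 0.005, adjusted 0.0094), with r = 0.51 without the 2 farthest mice, and with r = 0.84 in early and 0.38 in late mice. The correlation with Hoxd11 was r = 0.049 (permutation p = 0.83, adjusted 0.83; rho = 0.14, permutation p = 0.54, adjusted 0.54) and with Hoxc11 r = 0.24 (permutation p = 0.29, adjusted 0.31; rho = 0.21, permutation p = 0.35, adjusted 0.38). The part of the ventral horn in the level of Hoxa11 was not tested.

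Within group 10, Hoxa10 and Hoxc10 had r = 0.51 (permutation p = 0.015, adjusted 0.021; rho = 0.47, permutation p = 0.028, adjusted 0.046). Hoxa10 and Hoxd10 had r = 0.58 (permutation p = 0.0058, adjusted 0.0097), with rho = 0.34 (permutation p = 0.12, adjusted 0.16). Hoxc10 and Hoxd10 had r = 0.50 (permutation p = 0.019, adjusted 0.023), with rho = 0.23 (permutation p = 0.30, adjusted 0.35). The last rested on the pair of mice with the highest Hoxc10, Late SAFit2 mouse 5 and Late Vehicle mouse 6, and was r = 0.034 without them, while the others were 0.36 and 0.34 without the 2 mice farthest from the median of Hoxa10. In early mice alone Hoxa10 and Hoxc10 had r = -0.43, and in late mice r = 0.72. The corresponding values were 0.35 and 0.73 for Hoxa10 with Hoxd10 and 0.44 and 0.79 for Hoxc10 with Hoxd10.

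Of all genes tested, those whose deviations from the group means were most like those of Hoxc10 over 22 mice were Fam174a (r = 0.84), Ctxn2 (0.84) and Nap1l5 (0.82). For Hoxa10 they were Qrfpr, a receptor for a neuropeptide (0.90), Zfp9 (0.85) and Lgr4, a receptor for R-spondins (0.85). For Hoxd10 they were Gda, which encodes guanine deaminase (0.81), Slc39a8, a metal transporter (0.80), and 4930556M19Rik (0.78). They were chosen as the highest of 16765 genes, and no other Hox gene was among them.

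The members were next compared between Late and Early Vehicle mice, which had no drug and differed in the day of the gel and in the batch. Hoxd4 was 3.11-fold lower in Late Vehicle mice, the difference of lowest p among the members. Hoxd3, its neighbour in the cluster, was 1.74-fold lower, and Hoxc10 was 1.22-fold higher. These 3 of 34 members passed the test (8.82%), where 9.11% of all genes did, so the share of Hox genes was close to that of the table. Higher were 1 member (2.94%; all genes 3.29%) and lower 2 members (5.88%; all genes 5.82%). At a nominal p under 0.05 there were 6 members (17.6%) against 24.3% of all genes. The median log2 fold change of the members was 0.05, with 18 above and 16 below 0, and that of all genes was 0.01.

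Hoxd4 was at 3.24, 3.87, 2.85, 3.02 and 3.22 in the Early SAFit2 mice and at 1.22, 1.39, 1.65, 0.94 and 0.93 in the Late SAFit2 mice. In Early Vehicle mice the median of Hoxd4 was 3.14 (lowest 3.04, highest 4.23), and in Late Vehicle mice it was 1.73 (lowest 1.40, highest 2.12). The lowest of the 11 early mice was above the highest of the 11 late mice, whichever treatment they had. No other member separated the batches in this way (1 of 34), which 1.70% of all genes did. The log2 difference between Late and Early Vehicle mice was -1.64 ± 0.23 (SE; limma, adjusted p = 3.44e-05; exact permutation p = 0.00216, the smallest that 924 splits allow). Between Late and Early SAFit2 mice, a comparison added after the values were seen, it was -2.01 ± 0.25 (limma, adjusted p = 1e-05; exact permutation p = 0.00794, the smallest that 252 splits allow). With values corrected for GC content and length the differences of Hoxd4 were -1.70 and -1.89.

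Hoxd3 was at 3.05, 3.69, 2.73, 3.00 and 3.17 in the Early SAFit2 mice and at 2.04, 1.02, 1.67, 1.64 and 2.13 in the Late SAFit2 mice. Hoxd3 was at 3.67, 2.91, 2.94, 2.36, 3.34 and 2.77 in the Early Vehicle mice and at 1.51, 2.15, 2.44, 1.87, 2.75 and 2.45 in the Late Vehicle mice. The SAFit2 groups did not overlap and the Vehicle groups did. The differences of Hoxd3 were -0.80 ± 0.24 in Vehicle mice (limma, adjusted p = 0.0382; exact permutation p = 0.013) and -1.43 ± 0.27 in SAFit2 mice (limma, adjusted p = 0.000886; exact permutation p = 0.00794). In Vehicle mice the call of Hoxd3 was lost without any of 7 mice (Early Vehicle 1, 2, 3 and 5 and Late Vehicle 1, 2 and 4; adjusted p up to 0.113), with quantile normalization (0.0719) and with only the groups compared (0.059). The Vehicle groups did not overlap for 1 member, Hoxd4 (2.94%), and for 4.92% of all genes.

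Hoxd3 and Hoxd4 lie on the forward strand of chromosome 2 (Hoxd3 at chr2:74711993-74748271 and Hoxd4 at chr2:74721978-74729160 in RefSeq on GRCm38.p6, which is the build mm10). They start 9985 bases apart, and the annotated span of Hoxd4 lies inside that of Hoxd3. In GENCODE M21, 62.3% of the exon bases of Hoxd3 and 52.3% of those of Hoxd4 are shared with another gene on the same strand. How the counting assigned reads in the shared bases was not stated, so the 2 values are uncertain as separate measurements. Within batches their correlation was r = 0.85 in early and 0.28 in late mice. The mature microRNA miR-10b-5p begins 4096 bases into the span of Hoxd4, and its relative miR-10a-5p begins 1081 bases before the start of Hoxb4. Their mature sequences in RefSeq are shown because they mark the Hox4 position of both clusters and carry the same seed (bases 2 to 8, in capitals). Small RNAs were not measured in these libraries.
miR-10b-5p, chr2:74726074-74726096, forward strand: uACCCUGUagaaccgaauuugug
miR-10a-5p, chr11:96317186-96317208, forward strand: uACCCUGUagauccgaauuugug

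The other members near these were compared in the same way. Hoxb3 was 0.44 ± 0.18 lower in Late than in Early Vehicle mice on the log2 scale (limma, adjusted p = 0.119; exact permutation p = 0.0152) and Hoxb4 was 0.41 ± 0.18 lower (adjusted p = 0.158; exact permutation p = 0.0476), so neither passed the test over all genes. With the GC and length correction and a replicate block both passed (limma, adjusted p = 0.0222 for Hoxb3 and 0.0191 for Hoxb4), and under no other alternative. In Late against Early SAFit2 mice Hoxb3 was 0.52 ± 0.19 lower (limma, adjusted p = 0.0568, and 0.0358 with limma voom). Hoxb4 was 0.15 ± 0.20 lower there (limma, adjusted p = 0.618). Hoxb3 shares 52.9% of its exon bases with the opposite strand. Hoxa4, Hoxc4 and Hoxa3 had no difference at a nominal p under 0.05 between the Vehicle groups.

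The increase of Hoxc10 in late mice was small. In Vehicle mice it was 0.29 ± 0.08 on the log2 scale (limma, adjusted p = 0.0258; exact permutation p = 0.00433), from 6.47 ± 0.12 (SD, n = 6) to 6.76 ± 0.13 (n = 6). Early Vehicle mouse 4, at 6.68, reached into the range of the late mice. The call was lost without Early Vehicle mouse 1, 5 or 6 (adjusted p up to 0.0577) or Late Vehicle mouse 6 (a fold below 1.2), with only the groups compared (adjusted p = 0.0711), and with library quality weights (0.249, a fold below 1.2). With quantile normalization the difference was 0.20 (adjusted p = 0.137). The adjusted p ran from 0.00175 to 0.137 over all its alternatives other than leaving out a mouse. In SAFit2 mice the difference of Hoxc10 was 0.23 ± 0.09 (limma, adjusted p = 0.0705), and the groups did not overlap.

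**Figure D3:**
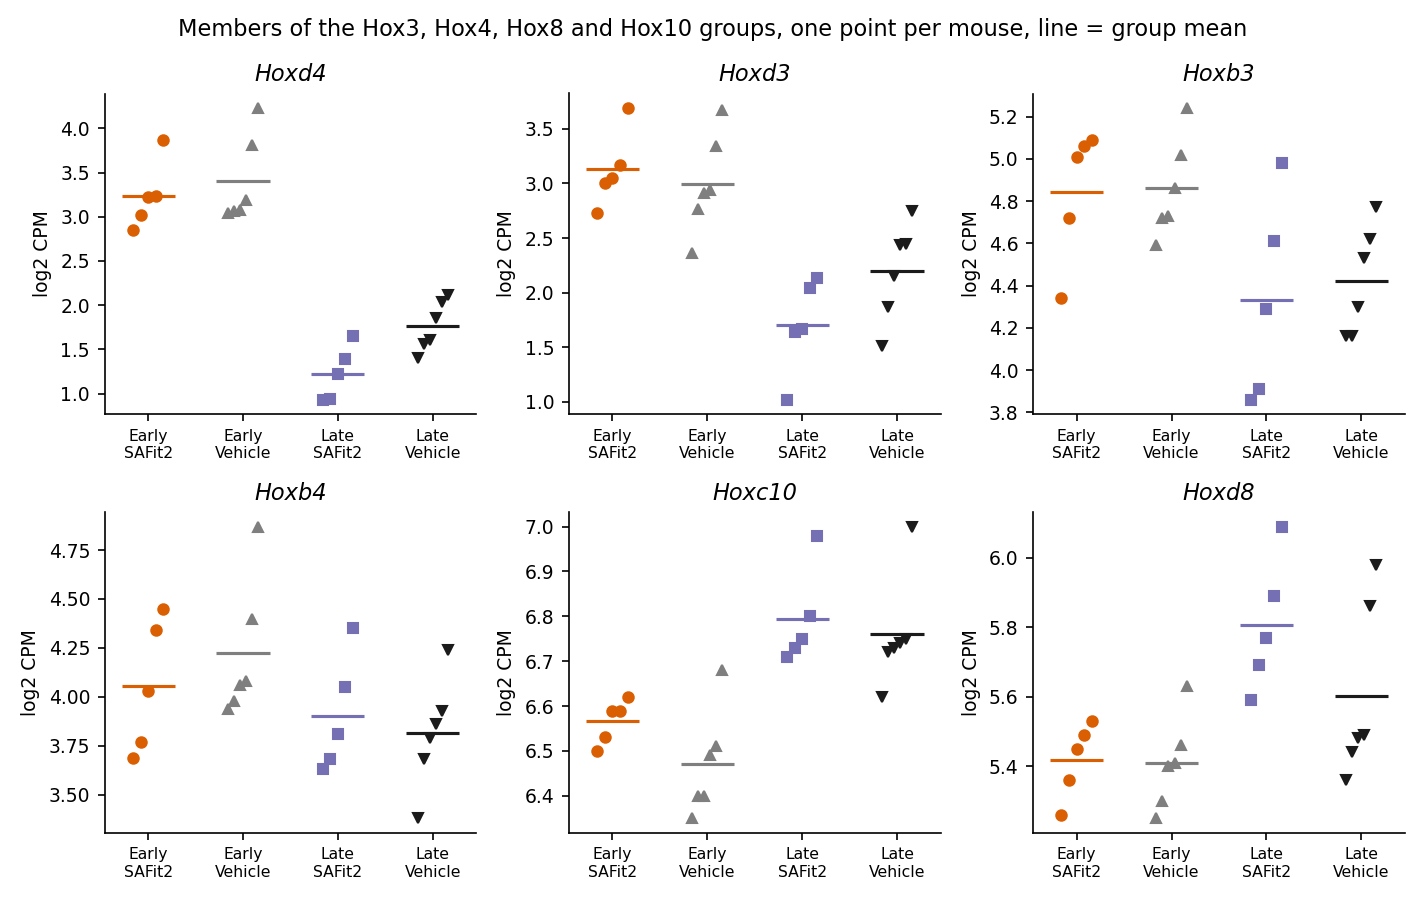
Log2 CPM of Hoxd4, Hoxd3, Hoxb3, Hoxb4, Hoxc10 and Hoxd8 in each mouse by group, with the group mean as a line and a separate vertical axis for each gene. For Hoxd4 the 11 early mice lie at 2.85 and above and the 11 late mice at 2.12 and below, for Hoxd3 the early and late SAFit2 mice are apart, and Hoxb3 and Hoxb4 overlap between all groups.

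Between Late and Early SAFit2 mice 5 of 34 members passed the test (14.7%), where 20.5% of all genes did. Higher was 1 member (all genes 9.2%) and lower were 4 (11.8%; all genes 11.3%), and at a nominal p under 0.05 there were 10 (29.4%; all genes 35.6%). Hoxd4, Hoxd3, Hoxa3 and Hoxa6 were lower in late mice and Hoxd8 higher. Hoxa3 was 2.18-fold lower (log2 difference -1.12 ± 0.23; limma, adjusted p = 0.00207). Hoxa6 was 2.15-fold lower (-1.10 ± 0.39; adjusted p = 0.0452), a call that was lost without any of 11 single mice of all 4 groups and ranged from an adjusted p of 0.0150 to 0.127 over 15 other alternatives. Hoxd8 was 1.31-fold higher (0.39 ± 0.12; adjusted p = 0.0278), a call lost without Early SAFit2 mouse 3 or 4 or Late SAFit2 mouse 4 or 5 (adjusted p up to 0.0867). The SAFit2 groups did not overlap for 5 members (Hoxd4, Hoxd3, Hoxa3, Hoxd8 and Hoxc10), or 14.7%, where 14.5% of all genes had groups without overlap.

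SAFit2 was then set against Vehicle within the late mice. Hoxa3, Hoxa6 and Hoxb6 were lower in Late SAFit2 mice, by 2.12-fold, 2.52-fold and 1.62-fold. These 3 of 34 members passed the test, a share of 8.82%, where 12.1% of all genes did. Of all genes 6.72% were called lower and 5.33% higher, and no member was called higher. At a nominal p under 0.05 there were 5 members (14.7%) against 34.5% of all genes. Hoxc8 was 1.69-fold higher and just missed the threshold. The median log2 fold change of the 34 members was -0.09, with 13 above and 21 below 0, and that of all genes was -0.05. The Late Vehicle mice serve in this comparison and in the Vehicle comparison above. Other measures of the libraries moved with the same contrast. Bc1, a short noncoding RNA of neurons, took 3.31% to 16.5% of reads in Late SAFit2 mice (median 5.14%) and 1.32% to 7.55% in Late Vehicle mice (median 1.78%). Genes at 0 reads had a median of 805 and 334 in these groups. Late SAFit2 mouse 5, with the lowest Hoxa3 and Hoxa6, had the highest of both, 16.5% and 1148 genes. Their part in the Hox differences was not tested.

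Hoxa3, a gene of the hindbrain and neck in the embryo, was at 1.08, 1.17, 1.08, 1.64 and 0.75 in the Late SAFit2 mice and at 2.35, 1.63, 2.44, 2.16, 2.54 and 2.25 in the Late Vehicle mice. The groups of Hoxa3 touched only at SAFit2 mouse 4 (1.64) and Vehicle mouse 2 (1.63). The log2 difference was -1.09 ± 0.22 (limma, adjusted p = 0.0272; exact permutation p = 0.00649). Hoxa3 had 14 to 128 reads per library, and 25.4% of its exon bases are shared with genes on the opposite strand. Hoxa6 lies between Hoxa5 and Hoxa7 and was at 1.25, 0.45, 0.92, 1.27 and -0.83 in the Late SAFit2 mice and at 2.23, 1.52, 2.12, 1.83, 2.61 and 1.37 in the Late Vehicle mice. Its groups did not overlap (-1.33 ± 0.37; adjusted p = 0.0346; exact permutation p = 0.00216, the smallest that 462 splits allow), and it rested on 4 to 136 reads per library.

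Hoxb6, one of the more abundant members, was at 5.64, 5.01, 5.10, 5.23 and 5.18 in the Late SAFit2 mice. In the Late Vehicle mice it was at 6.17, 5.27, 6.38, 6.15, 6.33 and 5.26, so that mice 2 and 6 lay within the SAFit2 range and the other 4 well above it. The difference was -0.69 ± 0.21 (limma, adjusted p = 0.0403; exact permutation p = 0.0303). Hoxc8, which in the embryo marks the lower neck and upper trunk, was at 6.08, 6.55, 6.27, 6.77 and 6.46 in the Late SAFit2 mice and at 5.49, 6.0, 5.30, 5.88, 5.37 and 5.97 in the Late Vehicle mice. The groups of Hoxc8 did not overlap, with Vehicle mouse 2 closest to the SAFit2 mice (0.76 ± 0.26; adjusted p = 0.0527; exact permutation p = 0.00216). Groups did not overlap for 2 of 34 members (Hoxa6 and Hoxc8), or 5.88%, and for 1.71% of all genes.

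All 4 of these genes moved with the GC slope of the library, as the plot against that slope shows. They were chosen for differing between the late groups, whose slopes also differ (median -0.33 in Late SAFit2 and 0.30 in Late Vehicle mice), so the pooled correlations in part restate that choice. With the group means removed, r was 0.41 for Hoxa3, 0.56 for Hoxa6, 0.87 for Hoxb6 and -0.57 for Hoxc8. Over the 22 mice as they stand r was 0.69 for Hoxa3 (permutation p = 0.00046, adjusted 0.0011), 0.74 for Hoxa6 (permutation p = 3e-05, adjusted 0.00011), 0.89 for Hoxb6 (permutation p = 1e-05, adjusted 7.5e-05) and -0.71 for Hoxc8 (permutation p = 0.00035, adjusted 0.001). Spearman's rho was 0.79 (permutation p = 3e-05, adjusted 9e-05), 0.79 (permutation p = 2e-05, adjusted 7.5e-05), 0.88 (permutation p = 1e-05, adjusted 5e-05) and -0.73 (permutation p = 0.00016, adjusted 0.0004) in the same order. Without the 2 libraries farthest from the median slope r was 0.69, 0.78, 0.88 and -0.63. It was 0.54, 0.62, 0.71 and -0.52 in early mice and 0.73, 0.77, 0.96 and -0.93 in late mice. Late Vehicle mice 2 and 6, whose Hoxb6 was at the SAFit2 level, were also the only Vehicle mice of that batch with a negative slope (-0.17 and -0.31). The longest transcripts of Hoxa3, Hoxa6 and Hoxb6 have a GC content of 53.4%, 57.3% and 54.9%, and that of Hoxc8 has 45.2%. Not every member followed this order. Hoxd9 (61%) and Hoxd8 (55.8%) were higher in Late SAFit2 mice, by 0.11 ± 0.14 and 0.20 ± 0.12, without passing the test. Hoxd11 (42.4%) was lower by 0.46 ± 0.35, also without passing. The part of GC content in the late differences was not tested. With values corrected for GC content and length, none of the 34 members and none of the 16208 genes with a value was called. The late differences were then -0.91 for Hoxa3 (adjusted p = 0.0914), -1.07 for Hoxa6 (0.180), -0.47 for Hoxb6 (0.174) and 0.53 for Hoxc8 (0.226). Over all 15 alternatives other than leaving out a mouse, the adjusted p ran from 0.000248 to 0.102 for Hoxa3, 0.00243 to 0.180 for Hoxa6, 0.000253 to 0.174 for Hoxb6 and 0.00403 to 0.243 for Hoxc8.

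**Figure D4:**
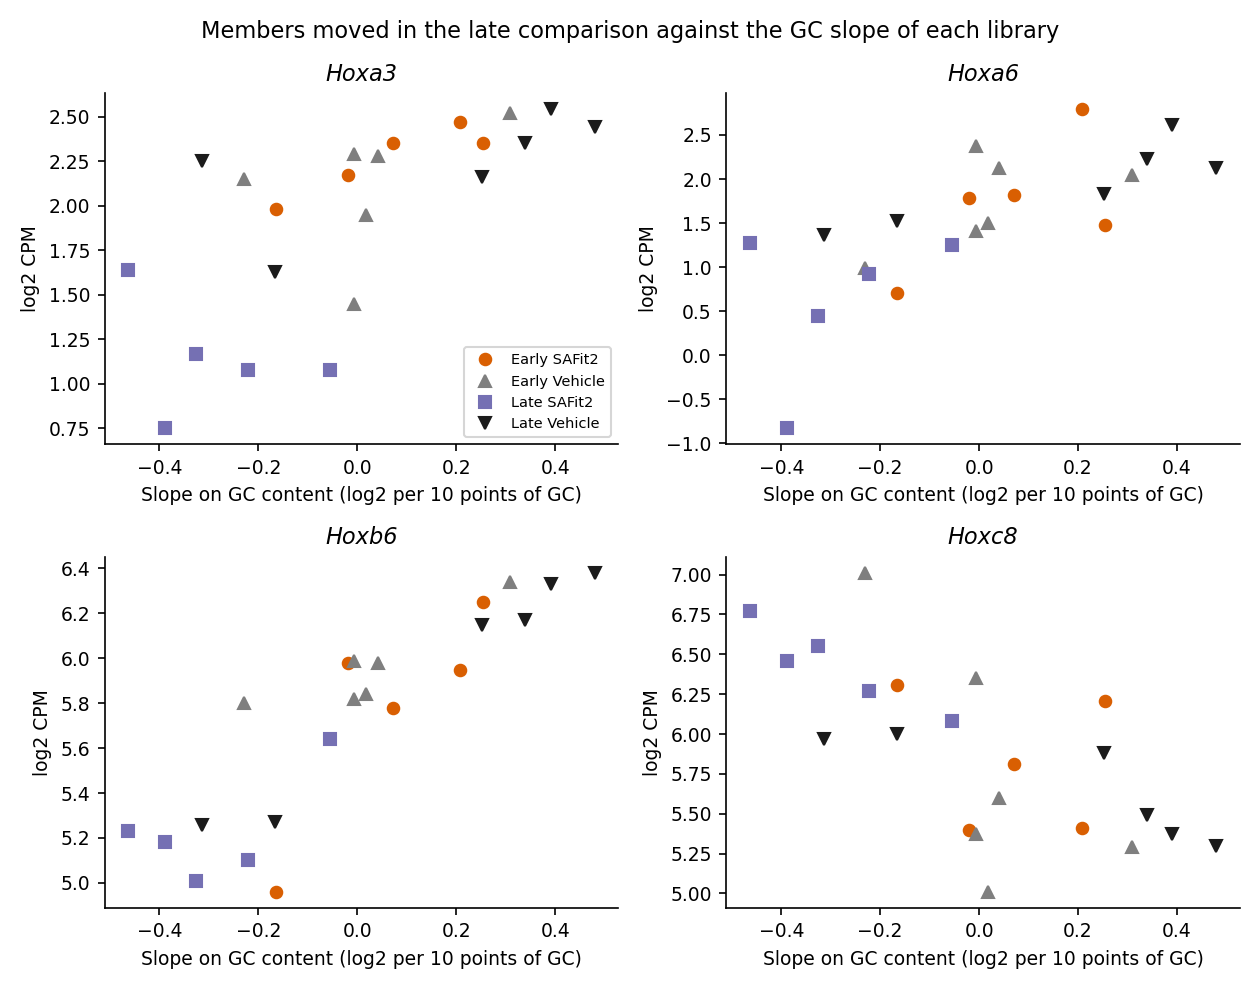
Log2 CPM of Hoxa3, Hoxa6, Hoxb6 and Hoxc8 against the slope of each library on GC content (log2 per 10 points of GC), one symbol per mouse. Hoxb6 follows the slope most closely (r = 0.89), with the 2 Late Vehicle mice of negative slope at the level of the Late SAFit2 mice, and Hoxc8 falls along it (r = -0.71).

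The late calls also depended on single mice. The call of Hoxa3 was lost without Late SAFit2 mouse 2 or 5 or Late Vehicle mouse 1, 3, 4 or 5 (adjusted p up to 0.0978), that of Hoxa6 without any of these or Late SAFit2 mouse 4 (up to 0.101), and that of Hoxb6 without any of these 7 or Late SAFit2 mouse 3 (up to 0.116). Hoxc8 passed without Early Vehicle mouse 1, 4 or 5, Late SAFit2 mouse 1 or Late Vehicle mouse 2 or 6 (adjusted p down to 0.0240).

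The promoters of these genes and of the Hoxd pair are given as RefSeq has them (GRCm38.p6, 250 bases before to 50 after the start, in the direction of the gene), to show how unlike they are in base composition. Those of Hoxa3 and Hoxa6 lie on the reverse strand. Capitals mark matches on either strand to any of 4 motifs. The TATA box was searched as TATAAA. The GC box, bound by Sp1, was searched as GGGCGG. The Cdx motif, of the factors that switch on Hox genes in the embryo, was searched as TTTATG. The motif for Pbx and Hox proteins together was searched as TGATNNAT. The table of promoters held none for Hoxb6 or Hoxc8.
Hoxd4, chr2:74721728-74722027, forward strand: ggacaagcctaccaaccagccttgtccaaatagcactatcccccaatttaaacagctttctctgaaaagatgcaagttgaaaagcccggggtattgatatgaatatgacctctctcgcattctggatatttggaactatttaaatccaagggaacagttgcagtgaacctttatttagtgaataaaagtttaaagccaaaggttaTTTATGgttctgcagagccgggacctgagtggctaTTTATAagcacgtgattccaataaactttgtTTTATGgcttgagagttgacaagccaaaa
Hoxd3, chr2:74711743-74712042, forward strand: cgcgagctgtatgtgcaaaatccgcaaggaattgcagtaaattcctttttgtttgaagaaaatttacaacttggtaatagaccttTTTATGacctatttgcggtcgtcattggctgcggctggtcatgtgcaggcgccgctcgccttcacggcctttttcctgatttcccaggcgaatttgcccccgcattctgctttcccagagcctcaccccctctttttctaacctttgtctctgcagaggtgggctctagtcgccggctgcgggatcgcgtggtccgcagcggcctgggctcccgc
Hoxa3, chr6:52213018-52213317, reverse strand: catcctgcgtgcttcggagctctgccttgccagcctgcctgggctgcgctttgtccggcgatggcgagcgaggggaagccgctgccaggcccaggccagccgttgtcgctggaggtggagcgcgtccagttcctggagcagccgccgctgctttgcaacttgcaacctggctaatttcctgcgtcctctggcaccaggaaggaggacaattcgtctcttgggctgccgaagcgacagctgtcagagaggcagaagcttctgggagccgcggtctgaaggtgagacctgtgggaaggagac
Hoxa6, chr6:52208623-52208922, reverse strand: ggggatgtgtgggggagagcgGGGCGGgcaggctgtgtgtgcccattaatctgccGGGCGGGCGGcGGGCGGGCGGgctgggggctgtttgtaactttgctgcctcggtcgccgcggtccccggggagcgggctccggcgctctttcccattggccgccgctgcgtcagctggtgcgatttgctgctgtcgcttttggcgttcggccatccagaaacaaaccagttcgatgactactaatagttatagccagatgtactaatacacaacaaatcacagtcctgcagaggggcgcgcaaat

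The window of Hoxd4 was poor in GC (39.7%, with 4 CG dinucleotides) and held 1 TATA box and 2 Cdx motifs. That of Hoxd3 had 54.0% GC, 20 CG dinucleotides and 1 Cdx motif. The window of Hoxa3 had 64.0% GC and none of these motifs, and that of Hoxa6 had 62.0% GC and 5 GC boxes, of which 4 overlap in pairs. Over the 32851 promoters of the table the median was 52.7% GC and 7 CG dinucleotides, and over the 22 promoters of 20 members it was 56.5% and 14.5. Of all promoters 13.6% held the TATA box, 35.7% the GC box, 11.8% the Cdx motif and 8.85% the Pbx-Hox motif. Of the 22 promoters of members 4 (18.2%), 8 (36.4%), 5 (22.7%) and 3 (13.6%) did. These are matches of letters in a fixed window and no evidence of binding.

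The group that defines the lumbar cord did not pass the test between Late SAFit2 and Late Vehicle mice. The log2 difference was 0.09 ± 0.11 for Hoxa10, 0.03 ± 0.09 for Hoxc10 and 0.08 ± 0.14 for Hoxd10 (limma, adjusted p = 0.611, 0.817 and 0.721), and all 3 signs turned without Late SAFit2 mouse 5 (-0.01, -0.01 and -0.06). The group 11 genes were lower in Late SAFit2 mice by 0.43 ± 0.24 (Hoxa11), 0.85 ± 0.54 (Hoxc11) and 0.46 ± 0.35 (Hoxd11) without passing the test (adjusted p = 0.202, 0.267 and 0.348). In group 9 the differences ran from -0.20 ± 0.15 for Hoxa9 to 0.11 ± 0.14 for Hoxd9, with Hoxb9 at 0.07 ± 0.13 and Hoxc9 at -0.10 ± 0.19. Hoxb8, the member of highest level, lay between 7.67 and 8.29 in Late SAFit2 and between 7.83 and 8.56 in Late Vehicle mice. The antisense members overlapped as well, with Hoxa11os at 1.5, 1.90, 2.30, -0.49 and -0.57 in Late SAFit2 mice and 1.06 to 2.65 in Late Vehicle mice, and a difference of -0.74 ± 0.43 (adjusted p = 0.229). That of Hoxaas3 was -0.37 ± 0.48 (adjusted p = 0.611).

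**Figure D5:**
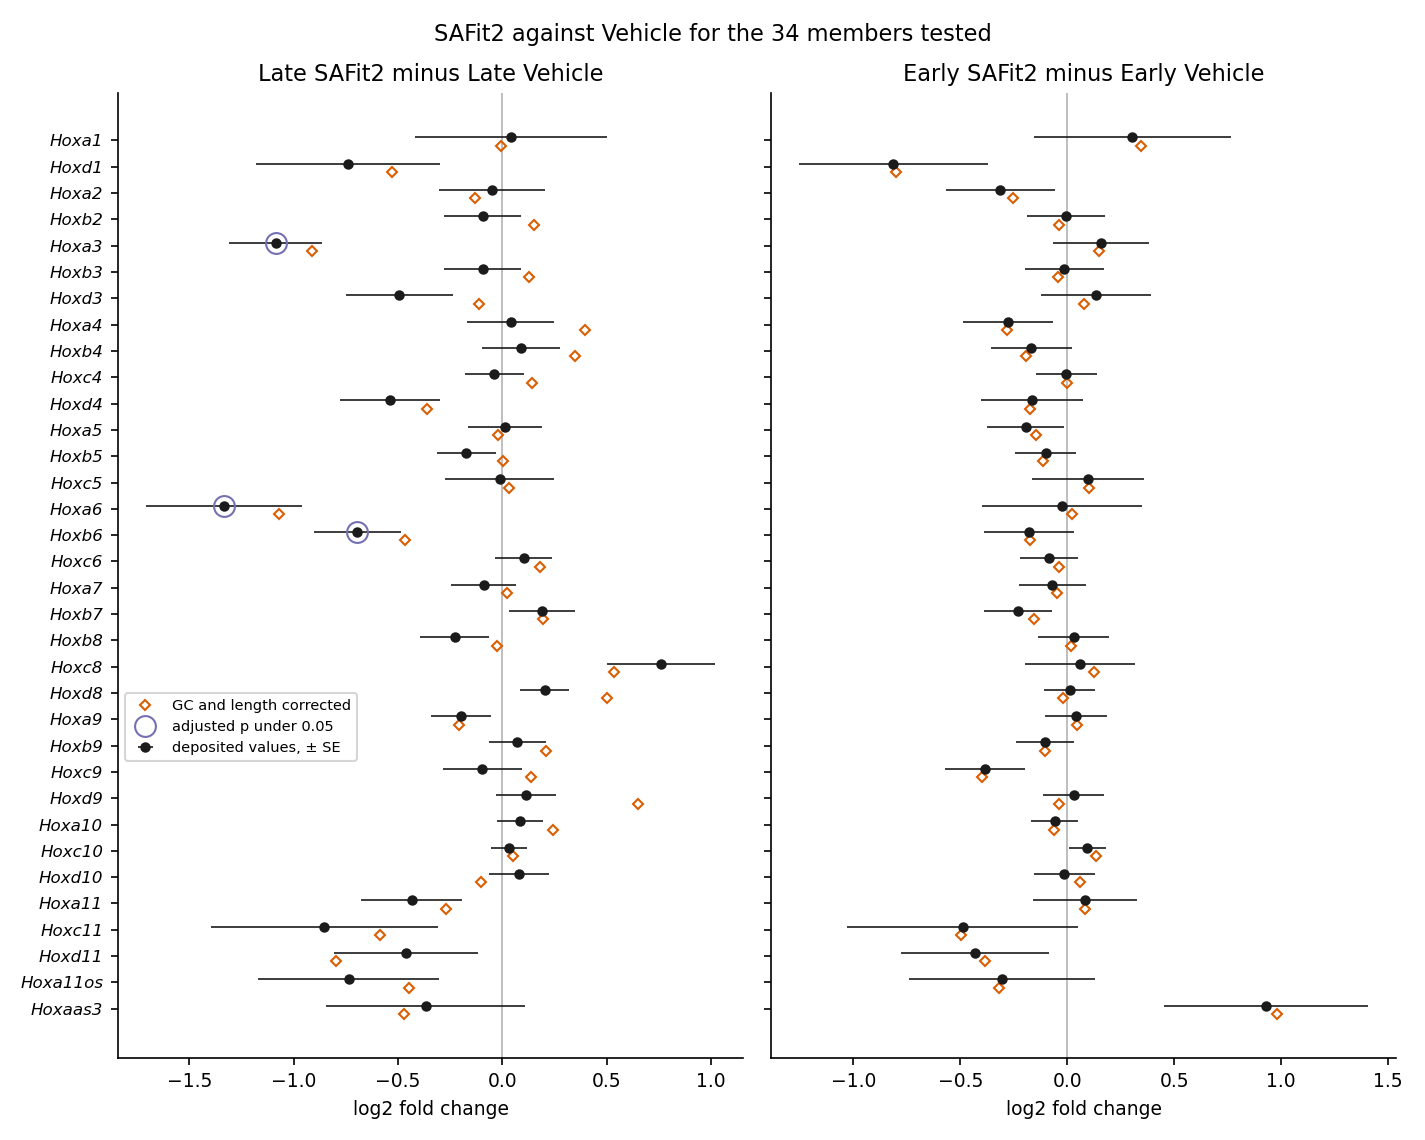
Log2 fold change of SAFit2 against Vehicle for the 34 members tested, ordered by paralogue group, in late mice (left) and early mice (right). Filled points show the deposited values with SE, open diamonds the values corrected for GC content and length, and rings mark Hoxa3, Hoxa6 and Hoxb6, the members called in late mice. No member was called in early mice or after the correction in late mice.

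In early mice no member differed between SAFit2 and Vehicle by the test, and neither did any of all genes (0%, limma). At a nominal p under 0.05 there were 0 of 34 members and 2.48% of all genes, and limma voom on reads called 0 members too. Among lower members the lowest p were those of Hoxc9 (-0.39 ± 0.19) and Hoxd1 (-0.81 ± 0.44), and among higher members those of Hoxaas3 (0.93 ± 0.48) and Hoxc10 (0.09 ± 0.09) (limma, adjusted p = 0.9999 for each; exact permutation p = 0.232 for Hoxc9). Hoxc9 was at 3.88, 3.93, 3.93, 4.04 and 3.40 in Early SAFit2 mice and at 3.75 to 5.02 in Early Vehicle mice, with a median of 4.01. No member and 0.352% of all genes had early groups without overlap. Early Vehicle mouse 5 had no read of Hoxaas3. The median log2 fold change of the members was -0.04 and that of all genes was 0.01.

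Averaged over both timings, no member passed (0% of all genes by limma, and 0 members by limma voom). At a nominal p under 0.05 there were 6 of 34 members (17.6%) against 13.2% of all genes. The lowest p among lower members belonged to Hoxa3 (-0.46 ± 0.16, adjusted p = 0.325) and Hoxb6 (-0.44 ± 0.15, adjusted p = 0.325), and among higher members to Hoxc8 (0.41 ± 0.18, adjusted p = 0.356) and Hoxd8. The difference between the early and the late effect was largest by p for Hoxa3, at 1.24 ± 0.31 (limma, adjusted p = 0.12; exact permutation within timing p = 0.00205 over 213444 arrangements), and for Hoxa6, at 1.31 ± 0.53 (adjusted p = 0.140). That permutation shuffled treatment within each timing and so assumed no effect at either. An effect in late mice alone can make its p small, and it does not test whether the 2 effects differ. Hoxa3 and Hoxa6 were the 2 of 34 members (5.88%) at a nominal p under 0.05, where 24.9% of all genes were. Neither passed the test, though Hoxa3 did without Late Vehicle mouse 6 (adjusted p = 0.0246), and both did with library quality weights (0.00142 and 0.0211). The late effect is thus not shown to differ from the early effect for any member.

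Genes that act with or upon Hox genes were taken as a list of 59, of which 52 were tested: Hox cofactors such as Pbx and Meis genes, retinoic acid and growth factor signals, and the Polycomb and Trithorax complexes that keep Hox genes off or on. In late mice 4 were higher and 6 lower in SAFit2 (10 of 52, or 19.2%, where 12.1% of all genes were called), with a median log2 fold change of -0.16 against -0.05 for all genes. The Polycomb genes Suz12 (0.54 ± 0.16, adjusted p = 0.0370), Rnf2 (0.51 ± 0.15, adjusted p = 0.0397) and Bmi1 (0.54 ± 0.16, adjusted p = 0.0412) were higher. Other Polycomb genes, Cbx7 (-0.74 ± 0.15, adjusted p = 0.0308) and Phc2 (-0.72 ± 0.16, adjusted p = 0.0324), and the Trithorax gene Kmt2b (-0.74 ± 0.21, adjusted p = 0.0359) were lower. Each of these 6 calls was lost without any of Late SAFit2 mice 2, 4 and 5 and Late Vehicle mice 1, 3, 4 and 5, that of Bmi1 also without Early SAFit2 mouse 4, and with the GC and length correction (adjusted p = 0.118 to 0.833). The corrected differences were 0.17 for Suz12, 0.06 for Rnf2, 0.12 for Bmi1, -0.38 for Cbx7, -0.16 for Phc2 and -0.24 for Kmt2b. The Polycomb gene Ring1 was also called lower, with a larger change (-0.89 ± 0.28, limma, adjusted p = 0.0450). After the correction its difference was -0.54 (limma, adjusted p = 0.2455). Between the Vehicle groups 1 of the 52 was higher and 7 were lower in late mice (15.4%, where 9.11% of all genes were called), with a median of -0.12 against 0.01 for all genes, and in the early comparison none passed.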

How the data were processed

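RNA was sequenced from the L4-L6 cord of 22 mice in paired reads. The deposited table holds log2 CPM per gene, which the authors made from gene counts. The submitters' processing notes name Trimmomatic, HISAT2, edgeR and the build mm10, and the study's methods featureCounts and TMM scaling. The strand setting of the counting was not given in the sources used here. Dividing by the value of a single read gave whole reads for 100.0% of values (tolerance 0.02 reads), and library totals of 11352989 to 24433349 limit the precision of low members.

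Of 17306 genes, 16765 reached a log2 CPM of -1 in 5 libraries and were tested with limma 3.58.1 (R 4.3.3; empirical Bayes with a variance trend) on the deposited values, with a mean for each of 4 groups. Called means a Benjamini-Hochberg adjusted p under 0.05 over all genes and a fold of at least 1.2. Adjusted p for differences between groups are limma's. Single genes also had two-sided exact permutation tests, and correlations two-sided permutation tests with 100000 resamples. Nothing states separate cultures or pools, and each library is taken as 1 mouse. CPM per kilobase subtracts the floor value and divides by the summed exons (GENCODE M21). GC content and length of genes were removed with a loess curve per library (span 0.5, 16208 genes). The limma fit was checked on counts simulated for the late comparison, without the GC slopes or batches of these libraries. The alternatives were a stricter filter, other scalings and weights, limma voom on the recovered reads, the GC and length correction, a replicate block and leaving out each mouse.

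Members and lists were chosen with earlier results of these data known. The named genes were members of groups 9 to 11, the 2 highest per length in each cluster, the antisense members, those called or of lowest p in each comparison, the 3 genes most like each group 10 member and the 3 pathway genes of lowest p in each direction.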

Additional observations from a re-analysis of the deposited data

Results flagged for a closer look

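Of 100 sets of values of a member within a group of 5 or 6 mice, 5 held a mouse whose gap to the next was large for the range of the group (Dixon's test), where chance gives about 1 in 20. Hoxa11 was at 1.93 log2 CPM in a Late SAFit2 mouse, and at 2.74 to 3.07 in the others. Hoxaas3 was at -3.15, the floor, in an Early Vehicle mouse with no read of it, and at -1.04 to 0.11 in the others. Hoxb6 was at 6.34 in an Early Vehicle mouse against 5.80 to 5.99 in the others. Hoxc10 was at 7.0 in a Late Vehicle mouse against 6.62 to 6.75. Hoxc9 was at 3.40 in an Early SAFit2 mouse against 3.88 to 4.04.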

How the results depend on the processing

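Of the alternatives other than leaving out a mouse, 657 left a value on its side of the threshold or within the spread, 53 lost a call, 11 gained one, 19 moved a count, a median or the score and 3 turned a sign. Hoxd4 between the Vehicle groups passed the test under all of them and without any mouse (-1.711 to -1.473). The number of members called between Late SAFit2 and Late Vehicle was 3 as reported, 1 with no variance trend or with limma voom, 0 with only the groups compared and with the GC and length correction, and 7 with library quality weights. Between the Vehicle groups it was 3, with 5 under quality weights (Hoxc10 not among them) and 1 under quantile normalization or with only the groups compared. Quality weights gave 9 between the SAFit2 groups, 4 averaged over timing and 4 for the early minus the late effect. The median log2 fold change of members was -0.003 in late mice and -0.093 for the early minus the late effect with the GC and length correction, and 0.075 between the SAFit2 groups with median centring. The sign of Hoxc10 in late mice turned with quantile normalization (-0.008) and that of Hoxd10 with the GC and length correction (-0.104). As the log2 ratio of summed CPM, the difference between groups 10 and 11 and groups 5 to 9 had a median of -1.968 over all mice. Its median was -1.89 in Early SAFit2, -2.11 in Early Vehicle, -1.72 in Late SAFit2 and -1.98 in Late Vehicle mice. Late SAFit2 mice were thus highest by this ratio and lowest by the score. The cause of these changes was not tested.

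Without single mice the members called numbered 0 to 4 in late mice, 1 to 3 between the Vehicle groups, 3 to 7 between the SAFit2 groups and 0 to 1 for the early minus the late effect. The late difference ran from -0.009 to 0.141 for Hoxa10, -0.015 to 0.080 for Hoxc10 and -0.061 to 0.179 for Hoxd10.

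The replicate numbers did not pair the mice (correlation of deviations -0.236 to 0.317 over 10 pairs, 2 of them above 0.1). With the replicate block 4 members were called in late mice, Hoxc8 being the addition (0.773, adjusted p = 0.0451, where its alternatives ran from 0.00403 to 0.243), and 3 between the Vehicle groups. With the replicate block and the GC and length correction 0 were called in late mice and 6 between the Vehicle groups. Hoxb3 and Hoxb4 were among these 6. The medians were then 0.010 averaged over timing and -0.093 for the early minus the late effect. The late difference of Hoxd10 was -0.103.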
